A study of Homo sapiens with 3 samples.

Results

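Transcript levels in LNCaP cells transfected with siRNA 1 against HOXD-AS1 were set against those in LNCaP cells transfected with a control siRNA, using 2 of the 3 arrays of the series, picked by their titles. Every probe set annotated to exactly 1 gene entered, 44988 of 49388. LNCaP is an established human prostate cancer line that carries the androgen receptor. All arrays came from cells in phenol red-free medium with serum, given 75 nM siRNA with a lipid carrier and taken after 48 h. The 2 arrays were those of the control siRNA and of HOXD-AS1 siRNA 1, and the remaining array, of HOXD-AS1 siRNA 2, is used here only to mark what was seen with siRNA 1 alone. Each group held 1 array, so that no difference below has a replicate check and none was tested, and both siRNAs share the control array. The source label names the control cells LNCaP, the siRNA 1 cells LNCaP-Bic and the siRNA 2 cells LNCaP-AI, whereas the cell line label says LNCaP for all of them. A difference between cells of those names and a difference between siRNAs cannot be told apart.

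HOXD-AS1, with the current symbol HAGLR, is a long non-coding RNA transcribed from the HOXD gene cluster, and the series looked for genes whose levels differ once it is knocked down. An siRNA is loaded into an Argonaute protein, which cleaves RNAs that pair with it along its length and can also repress mRNAs that pair with its seed alone. Genes of DNA replication are mostly driven by E2F factors and peak as cells enter S phase, while genes of mitosis are mostly driven by MYBL2 and FOXM1 with the DREAM and MuvB complexes and peak in G2 and mitosis. Both programmes are held down by the p53 target p21 and its relatives.

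The siRNA sequences are shown because the siRNA is the difference that the array titles name. They are printed as deposited, 5′ to 3′, with the first 19 of 21 bases in capitals and the last 2 bases in lower case, and the labels do not say which strand is loaded.
control siRNA: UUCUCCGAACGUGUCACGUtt
siRNA 1: GAAAGAAGGACCAAAGUAAuu
siRNA 2: GCCCUUUCUGACCUGCUUAuu
The labels give siRNA 1 an inhibition rate of 0.23 relative to the control, against 0.25 for siRNA 2 and 1 for the control itself, and state neither the method nor whether the rate is what remained. They also give a target position of 588 for siRNA 1 on the coding sequence of WDR5, although titles and siRNA labels name HOXD-AS1. The level of HOXD-AS1 was not analysed here, as 0 probe sets used here were annotated to it. WDR5, a subunit of the H3K4 methyltransferase complexes, read 444.5 in the control array, 351 with siRNA 1 and 407 with siRNA 2, a log2 difference of -0.34 with siRNA 1, and its other probe set differed by -0.14.

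The deposited values are probe set intensities. Values below a floor of 26.0, the median over the 3 arrays, were raised to it. A gene was taken as measured if it exceeded the floor on any of the 3 arrays, as 11286 of 18131 genes did. The distributions of the siRNA 1 and control arrays were close, with medians of 25.7 and 26.1 and sorted log2 values at most 0.07 apart. The cells had the markers of luminal prostate epithelium, of which all 9 with a probe set were measured, with a summed intensity of 15934 in the control and 17285 with siRNA 1 and 0 of them 2-fold apart. Of 19 leukocyte markers 7 were measured, while PTPRC, CD3D, CD14 and LYZ stayed below the floor, and the summed level of all 19 was 396 and 378. Of 26 stromal markers 14 were measured, the sum of all 26 was 4614 and 4881, and DCN, LUM, PDGFRA and PDGFRB stayed below the floor. FN1, by contrast, was bright at 2457 and 1993, and 2 stromal markers, COL5A2 and ACTA2, were 2-fold or more higher with siRNA 1.

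With siRNA 1, 153 genes were 2-fold or more higher than in the control (1.36% of the genes measured) and 199 were 2-fold or more lower (1.76%), 352 genes or 3.12% in all. The middle of the distribution hardly moved. The median log2 difference over all measured genes was 0.00, the 25th and 75th percentiles were -0.20 and 0.24, and the 5th and 95th percentiles were -0.65 and 0.67. Genes that were higher reached further than genes that were lower, from 3.28 for IL1RN at one end to -2.45 for PIMREG at the other. The share of genes past 2-fold was 1.51% in the fifth of genes with the lowest mean intensity, between 3.81% and 4.12% in the next 3, and 2.08% in the brightest. Among the dimmest genes 22 were higher and 12 lower, and among the brightest 17 were higher and 30 lower. At 3-fold the balance turned, with 29 genes higher (0.257%) and 19 lower (0.168%), and at 1.5-fold it did too, with 779 (6.90%) against 695 (6.16%).

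**Figure D1:**
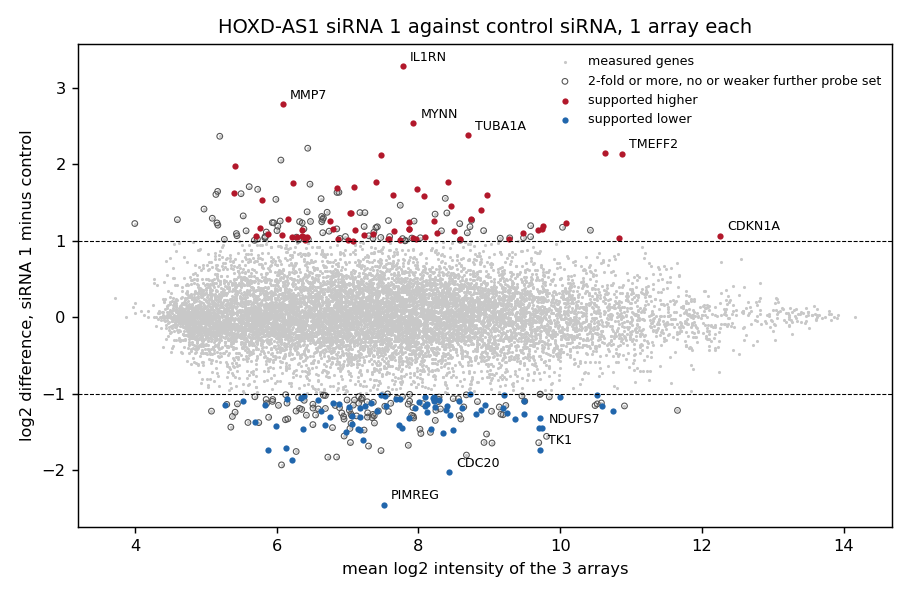
Each point is a measured gene, with its mean log2 intensity over the 3 arrays on the x axis and the log2 difference of siRNA 1 minus control on the y axis; dashed lines mark 2-fold. Red and blue points are the 66 higher and 77 lower genes whose further probe sets differed the same way by a log2 of 0.5 or more, and open circles are the other genes past 2-fold, which lie mostly at middle intensities.

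Probe sets of the same gene are not replicates, since they read the same RNA, but they can show how far a value depends on the stretch of transcript that is read. Some are not separate readings, as SDHD had further probe sets with identical values on every array. The counts of agreement and support below include such cases. Of the measured genes 6262 had at least 1 further measured probe set besides the one used. The SD between probe sets of a gene had a median of 0.13 on the log2 scale, their range had a median of 0.24 and a 95th percentile of 0.80, and 134 genes had a range of 1 or more. All probe sets of a gene pointed the same way in 50.6% of genes where the probe set used differed by under 0.25, in 74.0% between 0.25 and 0.5, in 82.0% between 0.5 and 1, and in 94.9% at 2-fold or more (205 of 216). Differences of 2-fold or more were therefore shared in direction by further probe sets in nearly all genes that had any. Their size was shared less often. A difference with a value below the floor is a lower bound on its size, so that dim further probe sets can fall short of support. A gene is called supported here where every further measured probe set differed the same way by a log2 of 0.5 or more.

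Of the 153 higher genes 108 had further probe sets, and 66 of these were supported (1.05% of the 6262 genes with further probe sets). In 24 every further probe set was itself past 2-fold, in 33 the further probe sets were higher by less than 0.5 at the least, and in 9 at least 1 probe set was not higher. Of the 199 lower genes 108 had further probe sets as well, and 77 of these were supported (1.23%). In 44 every further probe set was past 2-fold, in 29 the support was weaker, and in 2 at least 1 probe set was not lower. The lower genes were thus more alike across probe sets than the higher genes, with a median of 0.88 against 0.70 for the least of the further differences, in the direction of the call. Where 3 or more further probe sets were measured, 13 of 29 higher and 15 of 22 lower genes were supported. The other 45 higher and 91 lower genes rest on 1 probe set.

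**Figure D2:**
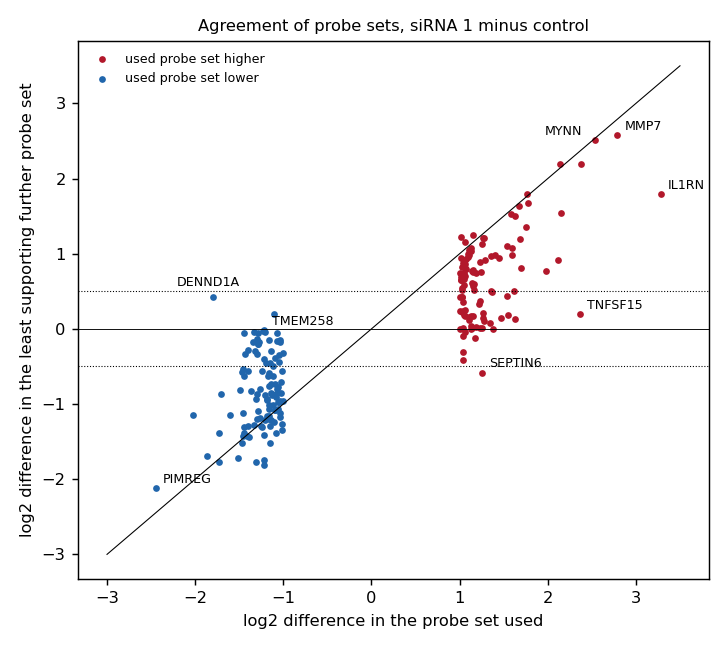
For the 108 higher (red) and 108 lower (blue) genes with further probe sets, the log2 difference of siRNA 1 minus control in the probe set used is on the x axis and that in the further probe set least in support of it is on the y axis. The solid diagonal marks equal values and dotted lines a log2 of 0.5; MMP7, MYNN and PIMREG lie near the diagonal, whereas TNFSF15, SEPTIN6 and DENND1A lie near or beyond 0.

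Among the supported higher genes, those ranked first by the smallest difference among their probe sets were led by MMP7, MYNN, TMEFF2 and TUBA1A. MMP7, which encodes the secreted protease matrilysin, read 32.6 in the control array, 225 with siRNA 1 and 42.5 with siRNA 2. It was 6.90-fold higher with siRNA 1, and the siRNA 2 array lay close to the control. Its 2 further probe sets, both below the floor in the control array, were higher by a log2 of at least 2.58 and 3.33. That at 2.58 passed the floor only with siRNA 1. MYNN, a zinc finger protein gene, read 110.4, 642 and 202, or 5.81-fold higher with siRNA 1, with further probe sets at 2.51 and 2.78. TUBA1A, an alpha-tubulin gene, read 174, 907 and 458, 5.21-fold higher, and its further probe set differed by 2.19. TMEFF2, a transmembrane protein gene of prostate and brain, read 682, 2998 and 3210, and here the siRNA arrays were alike and both far above the control.

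IL1RN, the interleukin-1 receptor antagonist gene, was the highest of all genes by the probe set used, 55.0 in the control array, 536 with siRNA 1 and 357 with siRNA 2. Its further probe set differed by less, 1.80 against 3.28 on the log2 scale. CAMK2N1, an inhibitor of the kinase CaMKII, read 695, 3090 and 1870.3 and was 4.44-fold higher with siRNA 1, with its further probe set at 1.54. CEL, the bile salt-dependent lipase gene, read 74.8, 255 and 253, and SYTL2, which encodes an effector of secretory vesicle traffic, read 154, 526 and 498. In both, the siRNA arrays were nearly equal. PEG3, an imprinted zinc finger gene, was 3.01-fold higher, with its further probe set at 1.52.

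In 3 of these 12 genes siRNA 2 lay near the control or on its other side. CEMIP2, a cell surface hyaluronidase gene, read 55.8 in the control array, 188 with siRNA 1 and 40.2 with siRNA 2, and its 3 further probe sets were higher by 1.35 to 1.48 with siRNA 1. COLCA1 read 208, 661 and 115 and its further probe set was higher by 1.64. MMP7 is the other. The sulfotransferase gene CHST2 read 24.9, 79.9 and 37.8. Its control value was below the floor, so it was at least 3.08-fold higher with siRNA 1. It lay between the other arrays with siRNA 2.

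Of the 77 supported lower genes, 39 were in the lists of cell division and replication genes. PIMREG, a mitotic regulator gene, was the lowest of all measured genes, 394 in the control array, 72.2 with siRNA 1 and 211 with siRNA 2, or 5.46-fold lower with siRNA 1, and its further probe set differed by -2.12. SHCBP1, which acts at the midbody, read 129, 35.6 and 89.5, with its further probe set at -1.69. TK1, the cytosolic thymidine kinase gene, read 1366, 412 and 1067, 3.31-fold lower with siRNA 1, with its further probe set at -1.77. The siRNA 2 array lay between the others in all 3, nearer to the control on the log2 scale. RNASEH2A, a subunit of ribonuclease H2, read 598, 217 and 361 and differed by -1.47 and, in the further probe set, -1.52.

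The mitotic phosphatase gene CDKN3 had the most probe sets among them. It read 1315, 481 and 919, and its 5 further probe sets differed by -1.68 to -1.39. MIS18A, needed to load the centromeric histone CENPA, read 191, 72.9 and 173, and DLGAP5, a spindle assembly gene, read 129, 46.8 and 94.2. For MIS18A the siRNA 2 value was close to the control. Of these 12 genes NMU and NDUFS7 have other roles. NMU, the neuropeptide neuromedin U gene, read 1369, 553 and 788. NDUFS7, a core subunit of respiratory complex I, read 1262, 461 and 1066, with 2 further probe sets at -1.36 and -1.30, and again siRNA 2 lay near the control.

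**Figure D3:**
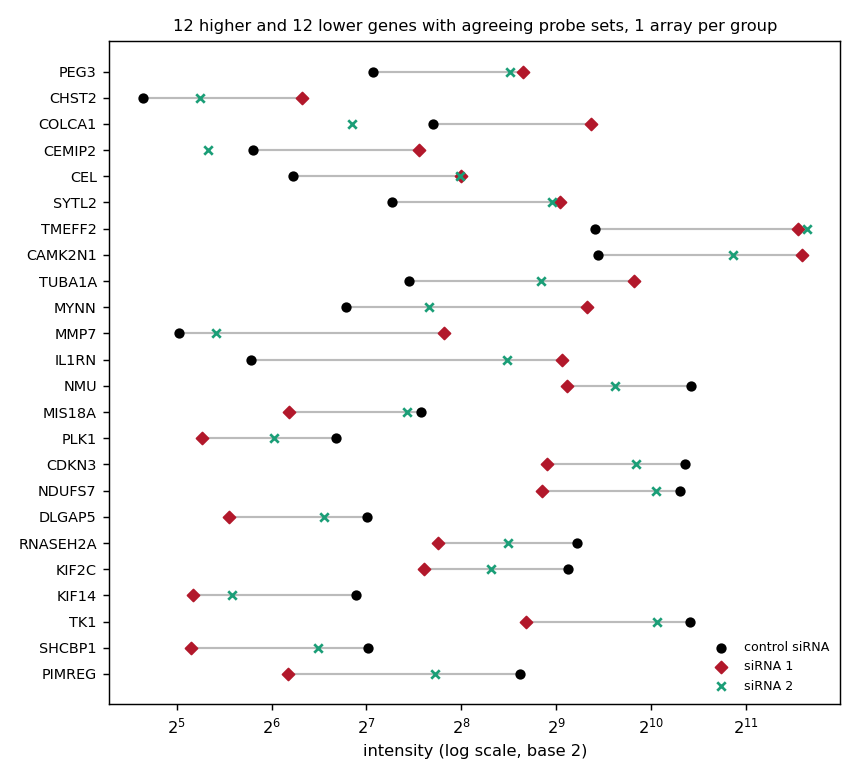
Intensities on a log axis of base 2 in the control (black circles), siRNA 1 (red diamonds) and siRNA 2 (green crosses) arrays for the 12 higher and 12 lower genes, ranked by the least difference among their probe sets; grey lines join control and siRNA 1. The siRNA 2 cross lies between the other marks in all 12 lower genes, while among the higher genes it lies left of the control for COLCA1 and CEMIP2 and right of siRNA 1 for TMEFF2.

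Genes of cell division and DNA replication, taken as 10 lists together, held 229 measured genes, of which 94 were 2-fold or more lower with siRNA 1 and 0 higher, against 1.76% and 1.36% of all measured genes. In all 208 were lower by any amount, against 48.0% of all measured genes, and the median log2 difference was -0.86 against 0.00. With siRNA 2 the median of the same genes was -0.39, and 196 of the 229 were lower with siRNA 1 than with siRNA 2. Support from further probe sets was met by 39 genes, all of them among the 94. The other 105 of the 199 lower genes were in none of these 10 lists, but the lists are not complete. PIMREG, SHCBP1 and DLGAP5, described above with roles in division, are among the 105. Like all lists here, these were drawn up with earlier results of these data known.

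Mitotic kinases and their activators were lower in all 25 measured genes, 19 of them by 2-fold or more, with a median of -1.19. AURKB, the kinase of the chromosomal passenger complex, read 391 in the control array, 123 with siRNA 1 and 260 with siRNA 2, and CDCA8, a subunit of the same complex, read 200.3, 56.5 and 104. PLK1, a kinase that acts throughout mitosis, read 102, 38.4 and 65.3, with its further probe set at -1.42. BIRC5, the survivin gene, read 867, 359 and 643, but its 10 further probe sets ranged from -1.68 to -0.17. The floor capped the -0.17, from 29.2 in the control array and 19.1 with siRNA 1. WEE1, a brake on entry to mitosis, was nearer to the control at -0.42. CDK1 itself, singled out after its values were seen, read 1954, 1259.6 and 1762, a difference of -0.63.

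All 18 kinesins and midzone genes were lower, 11 of them by 2-fold or more, and their median of -1.23 was the lowest of any list. KIF20A, which works in cytokinesis, read 325 in the control array, 97.4 with siRNA 1 and 176 with siRNA 2, and KIF2C, which depolymerises microtubules at kinetochores, read 557, 195 and 318 with its further probe set at -1.72. KIF4A, a motor of chromosome arms, read 167, 61.4 and 132, but its further probe set differed by -0.34. All 35 kinetochore, centromere and checkpoint genes were lower too, 19 by 2-fold or more, with a median of -1.01. SPC25 and NDC80 encode subunits of the NDC80 complex, which holds microtubules, and they differed by -1.82 and -1.46. CENPA, the centromeric histone, read 495, 221 and 352, with 3 further probe sets at -1.18 to -1.01. MIS12 and NSL1, of the MIS12 complex, were within 0.10 of the control in the probe set used, and NSL1 differed by -0.31 in its further one.

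The anaphase-promoting complex was near the control in most of its subunits. Of 20 genes, 5 were 2-fold or more lower and the list median was -0.16, which became 0.0875 when only probe sets with plain identifiers were used. Those 5 were the activator CDC20 (703 in the control array, 173 with siRNA 1 and 337 with siRNA 2), the separase gene ESPL1 (236, 85.2 and 169), the inhibitor FBXO5 (202, 82.5 and 143), and the ubiquitin-conjugating enzymes UBE2C and UBE2S, which serve the complex. The 15 others, mostly core subunits, lay between -0.25 for ANAPC7 and 0.20 for CDC26 in the probe set used. The further probe set of one of them, ANAPC16, was past 2-fold, at 157 in the control array, 316 with siRNA 1 and 159 with siRNA 2. Condensin and cohesin divided in a like way. Condensin genes were lower, NCAPG by -1.28 and NCAPH by -1.25, as were the cohesin regulators CDCA5 (-1.35) and ESCO2 (-1.10). The further CDCA5 probe set differed by -0.18, capped by the floor from 29.3 in the control array and 16.3 with siRNA 1. The cohesin subunit STAG2 (0.30) and the cohesin regulator PDS5B (0.40) were higher, though PDS5B differed by -0.30 in its further probe set. MKI67, the proliferation marker, read 232, 94.0 and 139, and its 5 further probe sets ranged from -1.53 to -0.87.

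Genes that fire replication origins and unwind DNA were lower in 28 of 29 measured, 11 of them by 2-fold or more, with a median of -0.87, and 9 of the 11 were supported. MCM2, MCM4, MCM6 and MCM7 encode subunits of the replicative helicase. MCM7 read 2288 in the control array, 1025 with siRNA 1 and 1544 with siRNA 2, and its 3 further probe sets differed by -1.40 to -1.15. MCM4 differed by -1.21 and its 4 further probe sets by -1.82 to -1.21. CDC45, which joins the helicase at firing, read 75.7, 29.4 and 61.7. The origin recognition subunits ORC2 (-0.17) and ORC4 (0.10) were nearest to the control.

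Polymerase, clamp and ligase genes were lower in 26 of 27, 9 by 2-fold or more, with a median of -0.82 against -0.24 with siRNA 2. POLE2, a subunit of the leading-strand polymerase, read 129 in the control array, 38.3 with siRNA 1 and 93.7 with siRNA 2. PCNA, the sliding clamp, read 2659, 1193 and 2231.5. The histone chaperone gene ASF1B read 197, 70.1 and 143, with 2 further probe sets at -0.89 and -0.81. In all 3 the siRNA 2 array lay nearer to the control than to siRNA 1. RFC5, a clamp loader subunit, differed by only -0.02 in the probe set used but by -1.02 to -0.97 in its 3 further probe sets. Deoxynucleotide supply genes were lower in 10 of 14, 3 of them by 2-fold or more, TK1, DTYMK (-1.27) and the ribonucleotide reductase subunit RRM2 (-1.26). The nucleotide kinase CMPK1 (0.55) and the p53-regulated reductase subunit RRM2B (0.52) were higher, but the 3 further probe sets of RRM2B differed by only 0.00 to 0.11. Homologous recombination and Fanconi genes were lower in 22 of 23, 5 of them by 2-fold or more. Support was met by 0 of the 5, but only BRCA1 had the further measured probe sets that it requires. BRCA1 differed by -1.20, with 3 further probe sets from -1.18 to -0.04. The floor capped those at -0.04 and -0.25, which read 26.8 and 30.9 in the control array and 18.0 and 12.6 with siRNA 1.

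**Figure D4:**
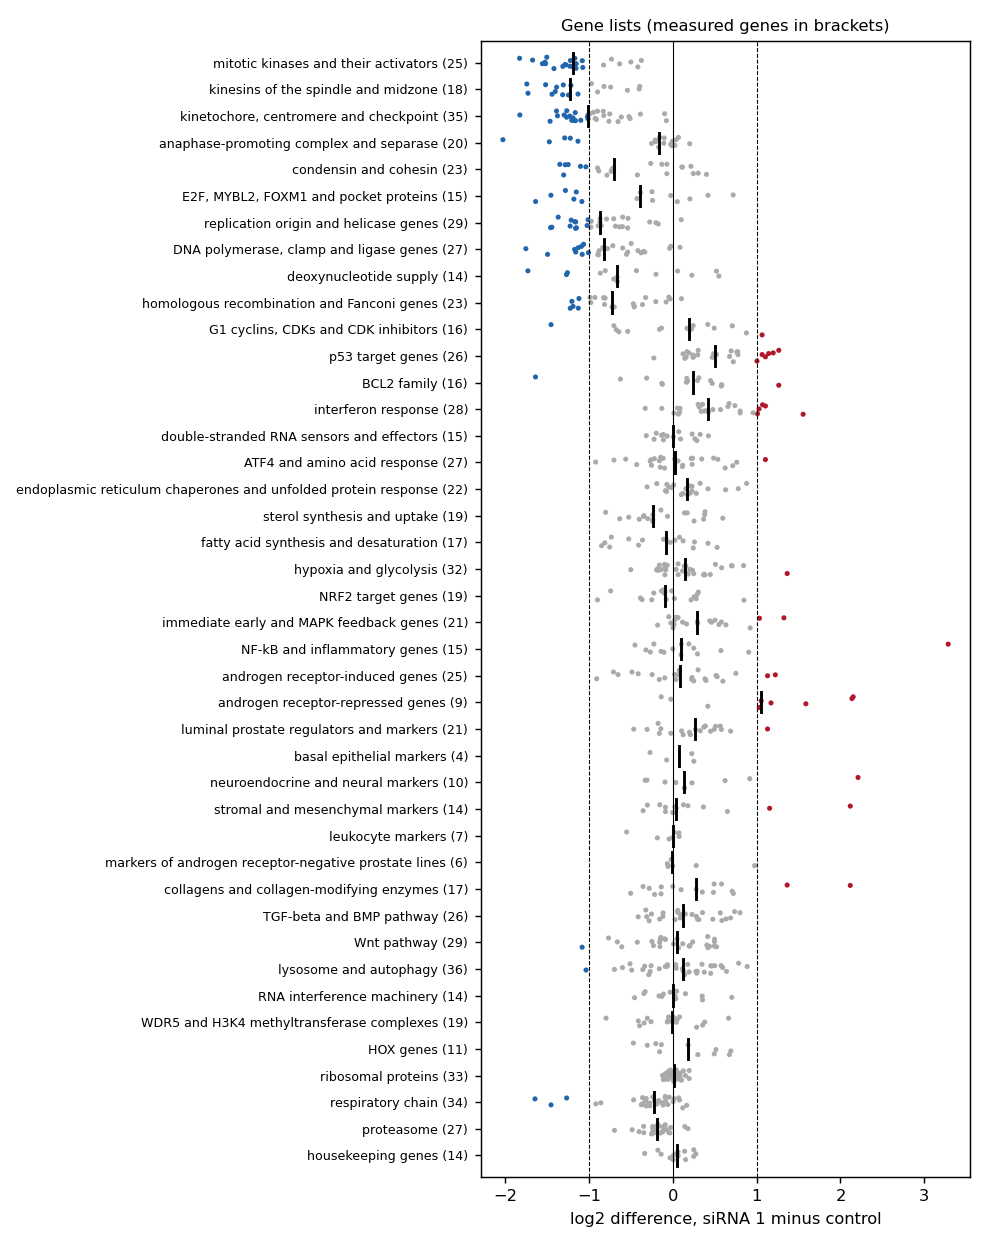
Each point is a measured member of a gene list, with the log2 difference of siRNA 1 minus control on the x axis; blue and red points are 2-fold or more lower and higher, black bars are list medians, and points are spread vertically only for legibility. The 3 lowest medians are those of kinesins (-1.23), mitotic kinases (-1.19) and kinetochore genes (-1.01), and the highest is that of androgen receptor-repressed genes (1.05, 9 genes). All lists were drawn up with earlier results of these data known.

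Among the regulators of these genes, the activating factor E2F1 read 203 in the control array, 65.5 with siRNA 1 and 171 with siRNA 2, 3.11-fold lower with siRNA 1. FOXM1 read 237, 86.4 and 139, with 2 further probe sets from -1.46 to -0.54, and MYBL2 read 359, 148 and 259. All 3 were lower with both siRNAs and lowest with siRNA 1. E2F6 and the pocket protein RBL2, which act in repression, were higher, by 0.42 and 0.72. In E2F6 the 2 further probe sets ranged from -0.54 to 0.12, so that its direction was not shared.

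Promoter sequences of lower genes are shown because they hold motifs known from cell cycle genes. They are RefSeq promoters on GRCh38.p14, 250 bases before to 50 after the start, 300 bases each, on the strand of the gene. Capitals mark the cell cycle homology region (CHR; TTTGAA or TTCGAA), which binds MuvB complexes, CCAAT, which binds NF-Y, and the E2F letters TTCCCGC, each on either strand. CDC20, KIF14 and PLK1 held both CHR and CCAAT, and MCM7 held CCAAT and E2F.
CDC20 (chr1:43358731-43359030, plus strand): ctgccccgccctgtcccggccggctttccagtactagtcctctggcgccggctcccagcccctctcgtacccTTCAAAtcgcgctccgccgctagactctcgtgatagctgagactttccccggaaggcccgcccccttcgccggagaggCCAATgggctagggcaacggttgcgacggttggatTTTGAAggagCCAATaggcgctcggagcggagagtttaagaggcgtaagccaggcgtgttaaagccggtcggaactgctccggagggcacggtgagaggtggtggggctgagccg
KIF14 (chr1:200620702-200621001, minus strand): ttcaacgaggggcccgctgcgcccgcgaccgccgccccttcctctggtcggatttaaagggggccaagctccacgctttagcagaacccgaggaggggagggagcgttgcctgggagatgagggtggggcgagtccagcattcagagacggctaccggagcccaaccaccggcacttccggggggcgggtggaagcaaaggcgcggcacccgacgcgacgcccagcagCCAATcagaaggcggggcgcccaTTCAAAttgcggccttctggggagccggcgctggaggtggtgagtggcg
PLK1 (chr16:23678639-23678938, plus strand): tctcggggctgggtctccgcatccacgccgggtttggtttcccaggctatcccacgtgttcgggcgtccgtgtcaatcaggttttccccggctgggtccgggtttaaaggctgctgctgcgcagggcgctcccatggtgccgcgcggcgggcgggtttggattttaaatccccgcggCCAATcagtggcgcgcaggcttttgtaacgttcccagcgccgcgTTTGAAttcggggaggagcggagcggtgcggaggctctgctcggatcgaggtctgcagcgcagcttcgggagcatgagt
MCM7 (chr7:100101348-100101647, minus strand): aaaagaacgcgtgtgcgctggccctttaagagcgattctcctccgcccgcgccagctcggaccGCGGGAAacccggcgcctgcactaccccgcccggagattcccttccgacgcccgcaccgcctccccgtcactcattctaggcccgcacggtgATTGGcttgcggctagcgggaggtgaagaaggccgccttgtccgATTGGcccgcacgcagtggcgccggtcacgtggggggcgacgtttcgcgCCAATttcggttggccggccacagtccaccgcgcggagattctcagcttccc
A CHR match was found in 38.7% of the promoters of the 168 lower genes that had one in the table, against 10.9% of 9323 measured genes, 17 of 121 higher genes and 16.6% of all 27305 promoters of the table. Among the 102 mitosis genes with a promoter it was found in 54.9%, and among 62 replication genes in 8.06%. CHR and CCAAT together were in 29.8% of lower and 4.82% of measured genes, and among supported lower genes in 37.3% of 67. The E2F letters were in 35.5% of replication genes, 19.0% of lower and 10.6% of measured genes. A match is a description of letters and not a bound site, the lists were drawn up knowing what these genes do, and for the 5191 genes of the table with several starts only the first listed was searched.

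Targets of p53 were higher with siRNA 1 in 25 of 26 measured genes, against 50.3% of all measured genes, with a median of 0.50. Of them 6 were 2-fold or more higher, against 1.36% of all measured genes. Support from further probe sets was met by 3, CDKN1A, SESN1 and TIGAR. CDKN1A, the p21 gene, read 3129 in the control array, 6551 with siRNA 1 and 5642 with siRNA 2, with its further probe set at 1.16. TIGAR, a regulator of glycolysis, read 104.5, 231 and 107, and its further probe set differed by 0.61, so that siRNA 2 lay at the control. MDM2, the ubiquitin ligase that degrades p53, likewise read 171, 344 and 194, but its 5 further probe sets ranged from 0.24 to 1.27. GADD45A, a growth arrest gene, read 518, 1189 and 732. Singled out after their values were seen, the cytokine GDF15 (0.77 with siRNA 1 and 0.11 with siRNA 2) and the kinase PLK2 (0.77 and -0.21) were also near the control with siRNA 2. The list median with siRNA 2 was 0.29.

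The G1 cyclins, their kinases and inhibitors went both ways, with a median of 0.19 that became -0.0094 with the mean over a gene's probe sets. CDKN1A was the highest and CDKN3 the lowest. CCNE2, an E-type cyclin, differed by -0.70, and CCNG2, a cyclin of quiescent cells, by 0.88, though by 0.03 to 1.26 in 3 further probe sets. The 0.03 came from a probe set below the floor in the control. In the BCL2 family, which sets the threshold of apoptosis, 11 of 16 genes were higher (50.3% of all measured genes). In each direction 1 was past 2-fold, against 1.36% higher and 1.76% lower of all measured genes. BCL2L12 read 1372 in the control array, 441 with siRNA 1 and 945 with siRNA 2, and the p53-induced killer BBC3 read 116, 278 and 217, although the further BBC3 probe set differed by 0.14.

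Interferon response genes were higher in 26 of 28 measured genes, 5 of them by 2-fold or more (50.3% and 1.36% of all measured genes), with a median of 0.42 with siRNA 1 against 0.09 with siRNA 2. Of the 5, IFI44, a gene induced by interferon, was supported. It read 113 in the control array, 238 with siRNA 1 and 126 with siRNA 2, with its further probe set at 0.80. IFIT2, which binds foreign RNA, read 223, 654 and 253, but its further probe set, whose control and siRNA 2 values were below the floor, differed by 0.18. SAMD9, an antiviral factor gene, read 57.9, 117 and 73.8, and OAS1, a sensor of double-stranded RNA, read 64.0, 138 and 115. IRF9, part of the interferon-activated factor, was equal in both siRNA arrays at 278. Singled out after their values were seen, RSAD2 (0.96 and 0.00) and IFIT1 (0.80 and -0.08) also stood near the control with siRNA 2.

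The IFI44 promoter is shown for its interferon-stimulated response element (ISRE; GAAA, any 2 bases and GAAA again, on either strand). Capitals mark that match, read as TTTCAGTTTC, and also a CHR and a CCAAT match.
IFI44 (chr1:78649539-78649838, plus strand): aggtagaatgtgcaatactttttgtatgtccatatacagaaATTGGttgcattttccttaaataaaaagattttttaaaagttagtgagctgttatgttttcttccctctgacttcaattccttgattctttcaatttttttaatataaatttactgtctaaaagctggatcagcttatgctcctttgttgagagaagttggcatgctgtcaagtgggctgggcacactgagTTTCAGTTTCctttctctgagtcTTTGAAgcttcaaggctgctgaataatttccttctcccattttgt
An ISRE match was found in 68.2% of the 22 interferon response genes with a promoter, against 2.54% of measured genes and 4.96% of the 121 genes 2-fold higher. The separate list of double-stranded RNA sensors and effectors, which did not hold OAS1, had 0 of 15 genes past 2-fold in the probe set used. Its median was 0.01. RIGI, the highest of that list in the probe set used, differed by 0.43 there and by 0.94 to 1.01 in 2 further probe sets.

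Stress programmes were mostly close to the control. Endoplasmic reticulum chaperones and unfolded protein response genes had 0 of 22 past 2-fold and a median of 0.17, but the highest members were near the control with siRNA 2. DNAJB9, a chaperone cofactor gene, read 173 in the control array, 318 with siRNA 1 and 187 with siRNA 2. HERPUD1, which serves degradation from the reticulum, read 321, 552 and 349, and its 2 further probe sets were higher by 0.78 and 0.91. HSPA5, the main chaperone of this compartment, singled out after its values were seen, read 2431, 3764 and 2644, with 5 further probe sets between 0.35 and 0.58. The sensor-regulated factor XBP1 differed by -0.19. In the ATF4 and amino acid list 1 of 27 genes, the stress factor ATF3, was past 2-fold (279, 599.6 and 421), its further probe sets were higher by 0.16 and 0.48, and the list median was 0.02. Among the 32 hypoxia and glycolysis genes P4HA2, a collagen prolyl hydroxylase, was past 2-fold (202, 521 and 366). NRF2 targets had 0 of 19 past 2-fold, with AKR1C3 at 0.85 and NQO1 at -0.90, though -0.33 in the further NQO1 probe set.

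Genes repressed by the androgen receptor were higher in 7 of 9 measured, 6 of them by 2-fold or more (50.3% and 1.36% of all measured genes), with a median of 1.05. This short list too was drawn up with earlier results of these data known. With siRNA 2 the median was 1.29 and 5 were 2-fold or more higher, DDC among them in place of UGT2B15 and CDK8. The 6 were CAMK2N1, TMEFF2, PEG3, UGT2B15, CDK8 and OPRK1, the first 4 of them supported. UGT2B15, which inactivates androgens by glucuronidation, read 1226 in the control array, 2505 with siRNA 1 and 1962 with siRNA 2. OPRK1, the kappa opioid receptor, read 72.4, 163 and 408, but its 3 further probe sets ranged from -0.13 to 0.37 with siRNA 1. Genes induced by the receptor went both ways, with 17 of 25 higher (50.3% of all measured genes) and a median of 0.08. ACP3, prostatic acid phosphatase, read 190.5, 445 and 664, the prostein gene SLC45A3 read 231, 123 and 157, and TRPM8, a cold-sensing channel of prostate epithelium, read 283, 619 and 188. TRPM8 was thus higher with siRNA 1 and lower with siRNA 2, and its further probe set differed by 0.18 with siRNA 1.

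Luminal regulators had 1 of 21 past 2-fold, TRPM8 again, and a median of 0.27, with the cadherin CDH1 at 0.69, though -0.05 in its further probe set, and the factor SPDEF at -0.47. Collagens and their modifying enzymes had 2 of 17 past 2-fold, COL5A2 and P4HA2. COL5A2, a fibrillar collagen, read 63.9 in the control array, 277 with siRNA 1 and 320 with siRNA 2. The list median of 0.28 became -0.33 when only probe sets with plain identifiers were used. Among immediate early genes KLF4 (1.03, and 0.24 in its further probe set) and the phosphatase DUSP5 were past 2-fold, DUSP5 by at least 2.51-fold from a control value below the floor, and among 29 Wnt pathway genes only the receptor FZD4, at -1.08. The TGF-beta and BMP list had 0 of 26 past 2-fold, with its highest members SMAD3 (0.80 and -0.21 with siRNA 2) and ID2 (0.74 and 0.06) near or below the control with siRNA 2. The further SMAD3 probe set differed by 0.24 with siRNA 1.

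Ribosomal protein genes stayed within 0.20 of the control in all 33 measured, between -0.12 for RPL14 and 0.20 for RPS19, with a median of 0.01. Housekeeping genes lay between -0.33 for GUSB and 0.27 for TFRC. Respiratory chain genes were lower in 28 of 34 and 3 were past 2-fold (48.0% and 1.76% of all measured genes), with a median of -0.23 against -0.02 with siRNA 2. Beside NDUFS7 these were ATP5MC1 and SDHD. ATP5MC1, a subunit of the membrane ring of ATP synthase, read 893 in the control array, 286 with siRNA 1 and 568 with siRNA 2. SDHD, the membrane anchor of succinate dehydrogenase, read 665, 277 and 489.9. Its 4 further probe sets ranged from -1.35 to -0.80, and some of them held identical values. Proteasome genes were lower in 25 of 27 (48.0% of all measured genes), but by less than 2-fold in all of them, with a median of -0.19 and PSMB3 the lowest at -0.69. Genes of the RNA interference machinery, on which an siRNA depends, had a median of -0.00 and 0 of 14 past 2-fold, with the Argonaute gene AGO4 at 0.70. The WDR5 and H3K4 methyltransferase list had 0 of 19 past 2-fold and a median of -0.01, with PSIP1 at -0.80, although 0.06 in its further probe set, and KMT2C at 0.67. Of the HOX genes and their neighbour MTX2, 11 were measured and 0 were past 2-fold. HOXD1, HOXD3, HOXD4, HOXD8 and HOXD9, genes of the cluster that holds HOXD-AS1, were not among those measured. MTX2, which lies beside the HOXD cluster, differed by -0.30, and HOXC4 and HOXC6 by 0.69 and 0.68.

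The third array marks which of these differences were seen with siRNA 1 alone. Of the 153 genes higher with siRNA 1, 36 were also 2-fold or more higher with siRNA 2 (0.789% of all measured genes were 2-fold higher with siRNA 2), 46 were higher by a log2 of 0.5 to 1, 65 were within 0.5 of the control and 6 were lower by 0.5 or more. Over these 153 genes the median difference was 1.18 with siRNA 1 but 0.60 with siRNA 2. Of the 199 lower genes 9 were also 2-fold lower with siRNA 2 (0.603%), 95 were lower by 0.5 to 1, 94 were within 0.5 and 1 was higher by 0.5 or more, with medians of -1.20 and -0.52. Both columns contain the same control array, so a deviation of that array enters both.

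A gene is called apart where siRNA 1 was 2-fold or more from the control and from siRNA 2 in the same direction. That held for 43 genes that were higher (0.381%) and 31 that were lower (0.275%). Of the higher ones MMP7 and MYNN were farthest from the control and COLCA1, by 2.52, farthest from siRNA 2, while MYNN was 1.67 from siRNA 2. TNFSF15, a cytokine of the TNF family, read 17.5 in the control array, 134 with siRNA 1 and 21.1 with siRNA 2, at least 5.16-fold higher, but its further probe set was at 0.20 and below the floor in both other arrays. PTGER4, the prostaglandin E receptor EP4, read 41.0, 170.4 and 42.4, and MECOM, a zinc finger oncogene, read 26.1, 103.0 and 28.8. FBN1, the fibrillin gene, read 22.3, 81.3 and 25.5, at least 3.13-fold higher. In these 4 genes the control and siRNA 2 arrays were nearly equal and dim, and only siRNA 1 was high. NHSL1 read 79.4, 255 and 75.1 and GASK1B 46.9, 136 and 26.6, both with supporting probe sets.

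Among the lower genes that stood apart were PIMREG, SHCBP1, TK1, MIS18A, POLE2, SPC25, E2F1 and GTSE1, all genes of division or replication. GTSE1, a microtubule-bound regulator of p53, read 122 in the control array, 32.2 with siRNA 1 and 76.7 with siRNA 2. The zinc importer gene SLC39A1 read 514, 212 and 509.6, so that siRNA 2 was at the control, but its 8 further probe sets ranged from -1.46 to -0.19. The -0.19 came from a probe set that fell below the floor with siRNA 1. DENND1A, an exchange factor for RAB35, read 625, 179.6 and 611. Of the 31 genes 10 were in the division and replication lists and 21 were not, and those lists held 94 of all 199 lower genes. The lists are not complete. PIMREG, SHCBP1 and GTSE1 are among the 21, so these counts do not divide the genes by function.

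**Figure D5:**
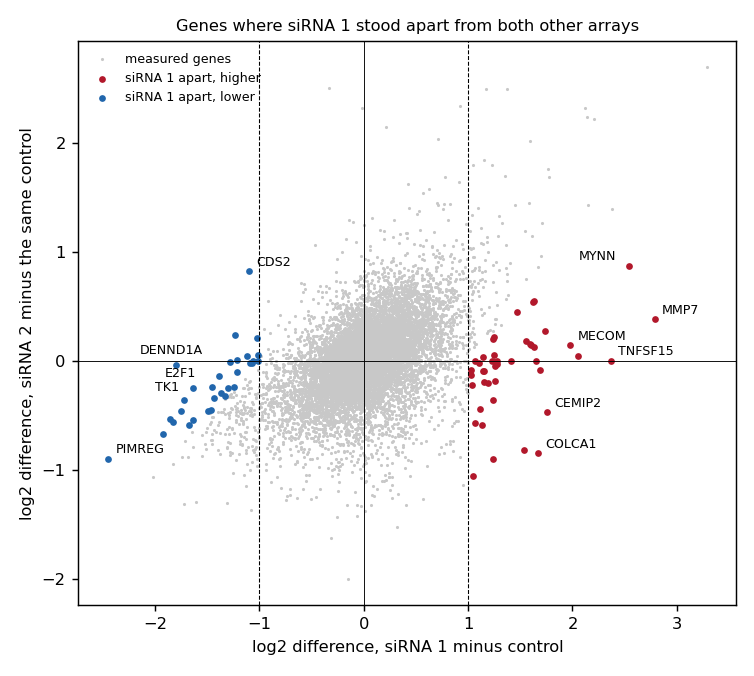
Each point is a measured gene, with the log2 difference of siRNA 1 minus control on the x axis and of siRNA 2 minus the same control on the y axis; dashed lines mark 2-fold with siRNA 1. Red and blue points are the 43 higher and 31 lower genes where siRNA 1 stood 2-fold or more from both other arrays; the shared control contributes to the slope of the cloud.

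Some values depended on the probe set read. The ranges between probe sets were widest in CSMD1, DENND1A, QKI, RPL22L1, SEPTIN6 and TNFSF15. The used DENND1A probe set differed by -1.80 and the 2 further ones, far dimmer, by -0.29 and 0.43. RPL22L1, a ribosomal protein paralog, was steady in its bright probe set (8134 in the control and 8660.3 with siRNA 1), while its dimmer probe set read 184 in the control array, 66.2 with siRNA 1 and 158 with siRNA 2. QKI, an RNA-binding splicing regulator gene, was higher in every probe set, by 0.64 in the one used, by 0.76 and 0.72 in further ones and by 2.27 in another. SEPTIN6, a cytoskeletal GTP-binding protein gene, ranged from -0.58 to 1.25 over the probe set used and 6 further ones. CSMD1, which encodes a large membrane protein of complement control, differed by 0.62, 1.34 and -0.44 in its 3 probe sets, with siRNA 2 in the same directions at 0.57, 1.06 and -0.70.

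A few genes past 2-fold in the same direction were neighbours. RefSeq order placed 11281 measured genes in 11255 neighbouring pairs, of which 4 were higher together and 6 lower together, all of them named here, and whether that is more or fewer than the shares of genes past 2-fold would give was not tested. The higher pairs were SYTL2 with CCDC83 on chromosome 11, TMTC3 with KITLG on chromosome 12, and MECOM with ACTRT3 and ACTRT3 with MYNN on chromosome 3. The run of 3 genes on chromosome 3 was higher with siRNA 1 by 1.98, 1.61 and 2.54 and with siRNA 2 by 0.14, 0.14 and 0.87. ACTRT3 read 19.4, 79.0 and 28.7, at least 3.04-fold higher with siRNA 1. The lower pairs were ENTREP3 with SCAMP3, TMEM258 with FEN1, OIP5 with NUSAP1, CENPB with CDC25B, PCNA with CDS2 and ESCO2 with PBK. In TMEM258, a subunit of the oligosaccharyl transferase, the probe set used read 4263 in the control array, 1837 with siRNA 1 and 4282 with siRNA 2, whereas its further probe set differed by -0.02.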

How the data were processed

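The deposited table held, per the file headers, 1 column per array, and its values were intensities on a linear scale. Per the submitters' processing notes the authors used GCOS 1.4; background correction, summarisation and normalization are not given in the sources used here, and values were used as deposited. If arrays had been brought to a common distribution, a shift of most transcripts would not show. Probe sets took genes from the platform annotation, and 44961 of 44988 matched RefSeq. A gene was read from its probe set of highest mean log2 intensity, with a floor at the 50th percentile of all values. A gene was called at 2-fold. Selected for naming were the top supported, extreme and apart genes and those of widest probe set range. List members past 2-fold and up to 4 at the ends of each list were added. Not all of these 275 genes appear in the text above, and AURKA, at -1.55 with siRNA 1, is an example. Others are marked. In total 42 lists held 1052 different genes, of which 832 were measured. Members and lists were chosen with earlier results of these data known. Scripts, tested on simulated data, used Python 3.11.15, pandas 2.3.3 and numpy 2.4.6. With 1 array a group, the number of arrays limits the precision. Alternatives were other floors, probe sets, scalings and thresholds.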

Additional observations from a re-analysis of the deposited data

Results flagged for a closer look

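In 7 genes that were 2-fold or more from the control with siRNA 1, siRNA 2 lay on the other side of the control by a log2 of 0.5 or more; the difference between the siRNAs was not tested. CDS2, an enzyme gene of phosphoinositide synthesis, differed by -1.10 with siRNA 1 and by 0.83 with siRNA 2, while its further probe set differed by 0.20 with siRNA 1. The other 6 were higher with siRNA 1 and lower with siRNA 2. COLCA1 differed by 1.67 and -0.85, DEFB132, a beta-defensin gene, by 1.24 and -0.90, and GASK1B by 1.54 and -0.82. HEG1, an endothelial junction receptor gene, differed by 1.07 and -0.57, PROCR, the endothelial protein C receptor gene, by 1.05 and -1.06, and the channel gene TRPM8 by 1.13 and -0.59. In COLCA1, GASK1B, DEFB132 and HEG1 the further probe sets were higher with siRNA 1 as well, the least of them by 0.76 in DEFB132, whereas PROCR had none and that of TRPM8 differed by 0.18.

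Probe sets annotated to several genes or to none are outside all counts of the report. Of 2065 such probe sets above the floor on at least 1 array, 13 were 2-fold or more higher with siRNA 1 and 20 were 2-fold or more lower. Among the 23896 measured probe sets annotated to exactly 1 gene, 283 were 2-fold or more higher and 358 were 2-fold or more lower. Both are larger shares, so the probe sets left out did not stand out by these counts.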

How the results depend on the processing

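The counts given first are of genes higher and lower, supported higher and lower, and apart higher and lower. Against 153, 199, 66, 77, 43 and 31, a floor at the 75th percentile gave 66, 111, 18, 26, 15 and 15, and only probe sets with plain identifiers gave 56, 48, 14, 11, 23 and 10; both leave fewer genes. A threshold of 1.5-fold gave 779, 695, 197, 194, 296 and 280, and one of 3-fold gave 29, 19, 18, 7, 9 and 1. Averaging all probe sets gave 92 higher genes, 27 apart higher and 19 apart lower, and its 160 lower genes were within 1.5 times. A floor at the 25th percentile, no floor, quantile normalization and median centring kept all 6 counts within 1.5 times, but of the 66 supported higher genes 48 were shared under the lower floor and 41 without a floor. Of the list medians more than 0.13 from 0, the median SD between probe sets of a gene, 3 changed sign, G1 cyclins to -0.0094 with averaged probe sets, and the anaphase-promoting complex to 0.0875 and collagens to -0.33 with plain probe sets; the cause was not tested. Of the 275 genes selected for naming, 226 had a value under the 75th percentile floor, 68 with plain probe sets and all with the other floors, averaged probe sets and scalings. Among those with a value, none past 2-fold changed sign, but 81 of 275 moved by more than 0.13 with averaged probe sets, 53 of 226 under the 75th percentile floor and 16 of 68 with plain probe sets. No paired analysis was possible because each group holds 1 array. Signal near the background limits dim genes, where the floor caps a fold.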

Other observations

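Other gene groups held few genes past 2-fold. Of 10 measured neuroendocrine and neural markers, GRIN3A, a glutamate receptor subunit gene, was past 2-fold with siRNA 1, at 31.1 in the control array, 144.0 with siRNA 1 and 145 with siRNA 2, and its only measured probe set was close to the floor in the control. SYT4, a synaptotagmin gene of vesicle release, read 1491 in the control array, 2819 with siRNA 1 and 2829 with siRNA 2, with 5 further probe sets between 0.61 and 0.92. The neuronal beta-tubulin gene TUBB3 read 304, 242 and 1733, so that it was high with siRNA 2 alone. Among stromal markers ACTA2, smooth muscle actin, differed by 1.16 with siRNA 1 and 1.85 with siRNA 2. Basal epithelial markers had 4 measured genes and a median of 0.08, and markers of androgen receptor-negative prostate lines had 6, with IGFBP3 at 0.98 in the probe set used and 0.01 in the further one.

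Lipid synthesis genes stayed under 2-fold. Sterol genes were lower in 12 of 19 (48.0% of all measured genes), with a median of -0.24 and 0 past 2-fold, from EBP at -0.80 to SC5D at 0.60, and fatty acid genes were lower in 10 of 17, with a median of -0.08 and the desaturase FADS1 at -0.85 and its 2 further probe sets at -0.83 and -0.78. Lysosome and autophagy genes had a median of 0.12 and 1 of 36 past 2-fold, CTSA, a protective lysosomal carboxypeptidase, at 412 in the control array, 201 with siRNA 1 and 248 with siRNA 2. NEU1, the sialidase that CTSA protects, read 192, 355 and 213 and was the highest of the list. Among 15 inflammatory and NF-kB genes IL1RN alone was past 2-fold, and LIF, a cytokine gene, differed by 0.91.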
